A study of Mus musculus with 12 samples.

Results

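The 10 dual-specificity phosphatase genes Dusp1, Dusp3, Dusp4, Dusp5, Dusp6, Dusp7, Dusp8, Dusp10, Dusp14 and Dusp16 were followed by their symbols through the RNA-seq tables of 12 libraries, among 18255 genes listed in any of them. All 10 were listed in every library and passed the filter on low counts. The genes were chosen by family together with a measured value of 1 of them, Dusp3, which had been noted as much lower in undifferentiated LIGHT cells. For this reason the comparison of the lines before differentiation is given as a description, with no test, and Dusp3 is tested only between the differentiated lines. The cells were 3T3-L1, a mouse preadipocyte line that turns into fat cells under hormones. The 4 groups of 3 libraries were differentiated LIGHT cells (LIGHT-Diff), undifferentiated LIGHT cells (LIGHT-Undiff), differentiated control cells (NC-Diff) and undifferentiated control cells (NC-Undiff). The differentiation was meant to give beige adipocytes and was the same in both lines. LIGHT cells overexpress Tnfsf14, the tumour necrosis factor family cytokine LIGHT. The labels do not say which vector or promoter was used, or whether each line is 1 clone. All 4 groups share the serum-containing culture medium. The differentiated groups also received, for 48 h, dexamethasone at 2 µg/ml, the phosphodiesterase inhibitor IBMX at 0.5 mM, rosiglitazone at 1 µM, triiodothyronine at 1 nM, insulin at 5 µg/ml and indomethacin, and then rosiglitazone, triiodothyronine and insulin alone.

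Dual-specificity phosphatases remove phosphate from both the threonine and the tyrosine of the activation loop of mitogen-activated protein (MAP) kinases, and so switch off ERK, JNK and p38 after a stimulus. Dusp1, Dusp4 and Dusp5 encode nuclear enzymes whose transcription is itself induced by MAP kinase signalling, Dusp6 and Dusp7 encode cytoplasmic enzymes selective for ERK, Dusp8, Dusp10 and Dusp16 encode enzymes that prefer JNK and p38, and Dusp3 and Dusp14 encode small atypical enzymes without the kinase-binding domain of the others. In preadipocytes ERK activity is known to be needed early in adipogenesis and to hold back the later steps when it persists, and Dusp1 is known to limit it during 3T3-L1 differentiation.

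The libraries held 16334079 to 19686675 expected counts each, so that 3 counts were worth 0.152 to 0.184 CPM (counts relative to the library total) before scaling. The CPM of genes are given after scaling. Tnfsf14 had 0, 148 and 122 counts in LIGHT-Diff, 38, 53 and 58 in LIGHT-Undiff, 113, 0 and 0 in NC-Diff and 0, 1 and 0 in NC-Undiff, so the libraries labelled LIGHT-Diff 1 and NC-Diff 1 went against their labels. Over all genes, the deviation between either of these libraries and the other 2 of its group was a chi-square of 35.3 to 49.5 per gene, against 2.50 to 7.34 in the other replicate pairs. On the log2 CPM scale the library labelled LIGHT-Diff 1 lay nearer to NC-Diff 2 and 3 than to LIGHT-Diff 2 and 3 for 9 of the 10 phosphatases and for 71.0% of all genes. The library labelled NC-Diff 1 lay nearer to LIGHT-Diff 2 and 3 for 7 of the 10 and for 72.1% of all genes. Member results are therefore given for the 12 libraries as labelled and for the 10 that remain without these 2. The 8 adipocyte markers all rose in both lines, with a summed level of 12446 to 18079 CPM in LIGHT-Diff, 201 to 235 CPM in LIGHT-Undiff, 12683 to 18193 CPM in NC-Diff and 208 to 241 CPM in NC-Undiff. Ucp1 and Cidea, the only beige markers counted here, were at or near 0, with at most 2 and 6 counts in any library. The labels name no separate cultures behind the 3 replicates, so the p-values measure only the spread between these libraries, which may be technical.

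Per length of transcript (FPKM), Dusp1 or Dusp4 had the highest mean level of the 10 genes in each group. In differentiated LIGHT cells Dusp4 and Dusp1 led, at 21.7 ± 2.36 and 21.3 ± 3.53 FPKM, with overlapping ranges (SD, n = 3). Below them came Dusp7 at 11.2 FPKM, Dusp5 at 10.6, Dusp10 at 8.85 and Dusp6 at 7.02, each overlapping the next. Dusp16 at 3.17 FPKM, Dusp14 at 2.17, Dusp8 at 0.397 and Dusp3 at 0.120 followed, each apart from its neighbours. Differentiated control cells had a like order, with Dusp1 at 22.3 ± 4.68 and Dusp4 at 20.8 ± 0.975 FPKM in overlap at the top, and Dusp8 at 0.443 and Dusp3 at 0.197 in overlap at the bottom. In undifferentiated LIGHT cells Dusp4 lay next to the bottom, at 1.51 ± 0.306 FPKM, and overlapped Dusp8 at 1.63 ± 0.0964 FPKM. In undifferentiated control cells Dusp4 had 8.18 ± 0.954 FPKM, between Dusp14 at 9.16 and Dusp5 at 7.66 FPKM, each overlapping the next, and Dusp1 at 17.4 and Dusp7 at 16.6 FPKM led in overlap.

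**Figure D1:**
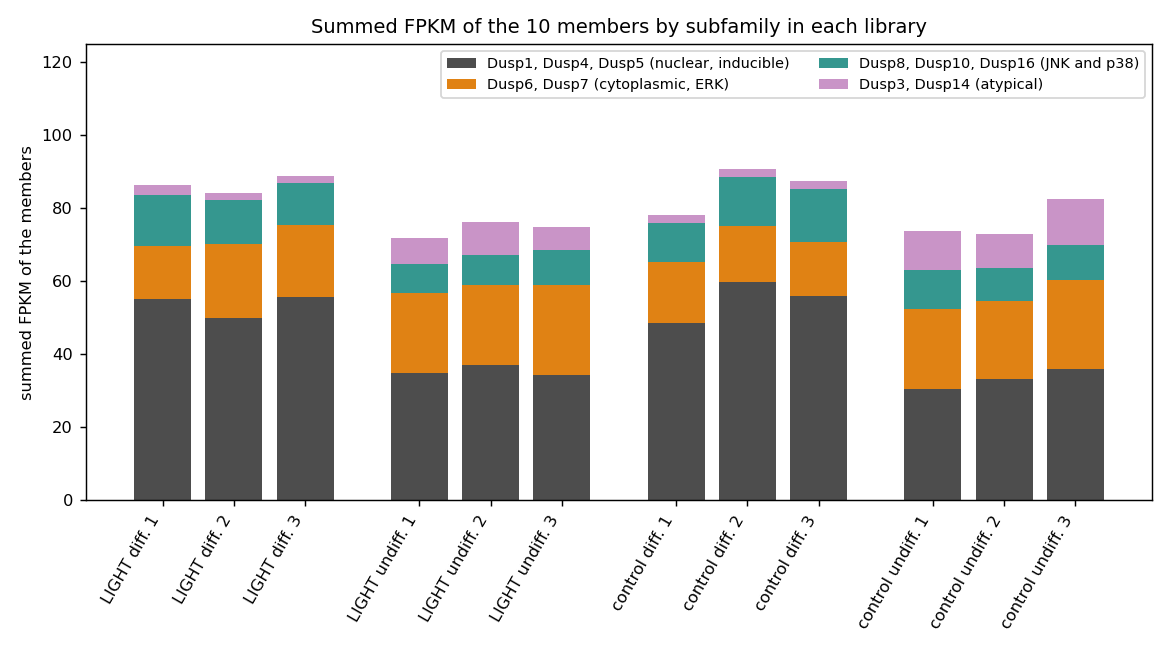
Summed FPKM (vertical axis, linear from 0) of the 10 genes in each library, stacked by subfamily. The dark nuclear inducible block reached 49.9 to 55.8 in LIGHT-Diff and 48.4 to 59.9 in NC-Diff, above the 34.3 to 37.1 of LIGHT-Undiff and the 30.5 to 36.0 of NC-Undiff, while the atypical block was thinner in every differentiated library.

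Summed over the 10 genes, the family held 86.5 ± 2.37 FPKM in differentiated and 74.4 ± 2.22 FPKM in undifferentiated LIGHT cells, and 85.5 ± 6.56 FPKM in differentiated and 76.4 ± 5.18 FPKM in undifferentiated control cells. The nuclear inducible genes made up 61.9 ± 2.45% of this sum in differentiated against 47.7 ± 1.61% in undifferentiated LIGHT cells, and 63.9 ± 2.01% against 43.4 ± 2.01% in control cells. The atypical genes made up 2.65 ± 0.434% in differentiated against 10.2 ± 1.79% in undifferentiated LIGHT cells, and 2.64 ± 0.195% against 14.3 ± 1.15% in control cells. These sums are weighted to the abundant members and were not tested. Without the 2 doubted libraries the nuclear share was 60.9 ± 2.48% in LIGHT-Diff and 64.9 ± 1.49% in NC-Diff (n = 2 each).

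**Figure D2:**
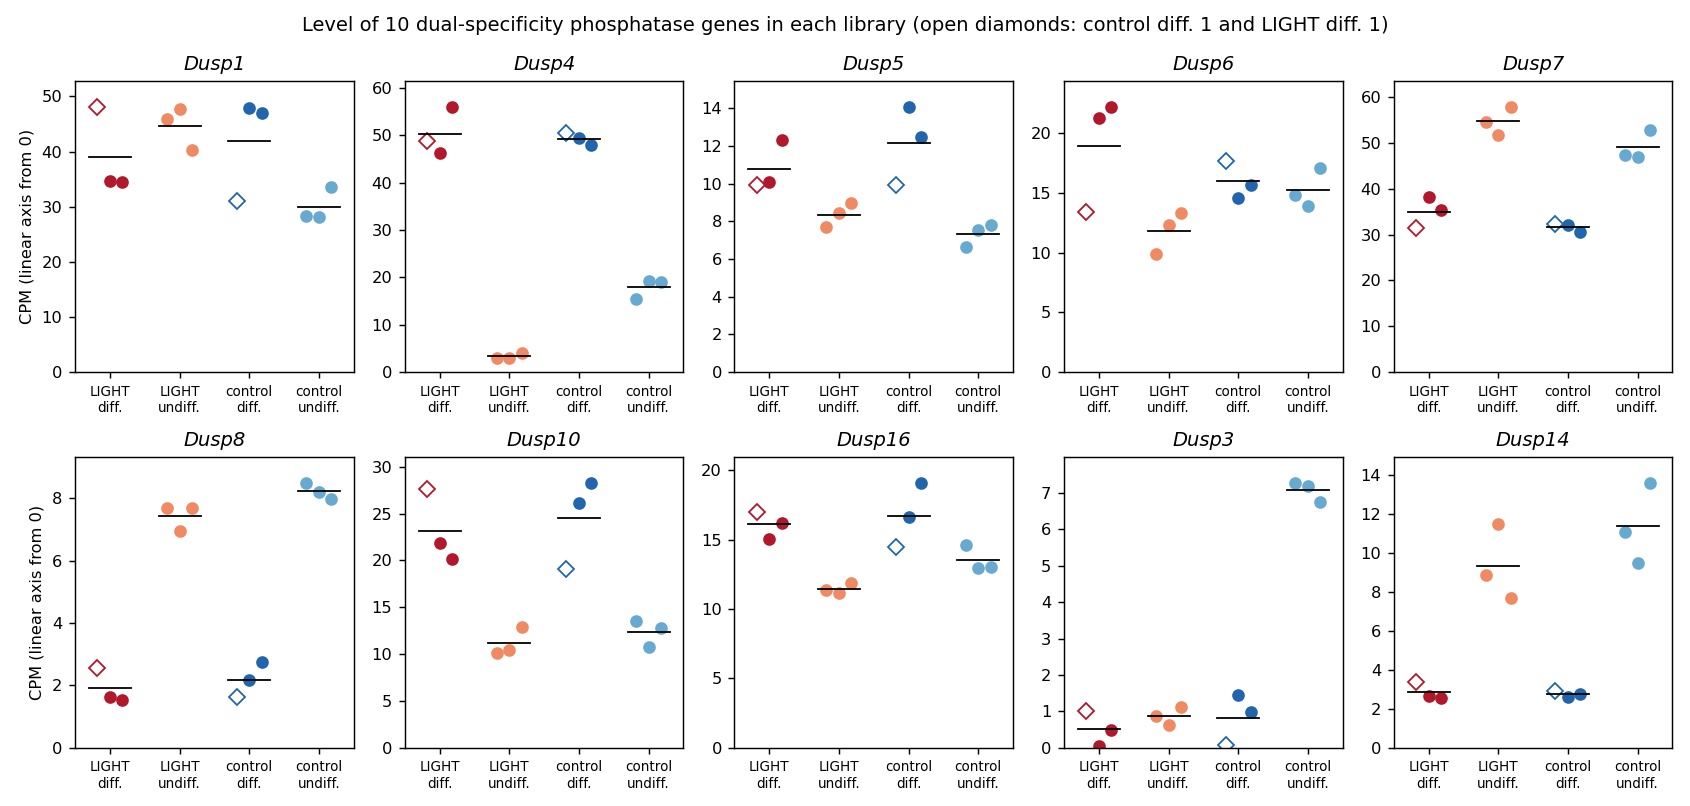
Level of each gene in each library (vertical axes, CPM, linear from 0); points are libraries, black lines are group means, and open diamonds are the libraries labelled LIGHT-Diff 1 and NC-Diff 1. Dusp4 in undifferentiated LIGHT cells and Dusp3 in all groups but NC-Undiff sit near the bottom of their axes, and in the Dusp1 and Dusp10 panels each open diamond lies apart from its own group and nearer the filled points of the other line.

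With differentiation, Dusp4, Dusp10 and Dusp16 rose and Dusp7, Dusp8 and Dusp14 fell in both lines. Dusp6 rose in LIGHT cells, and Dusp1 and Dusp5 rose in control cells. In LIGHT cells 7 of the 10 members passed an adjusted p under 0.05 (edgeR's quasi-likelihood test, Benjamini-Hochberg over 12993 genes), beside 58.6% of all genes tested. Of these, 4 rose, beside 29.5% of all genes, and 3 fell, beside 29.1%. In control cells 9 of 10 passed, beside 63.9% of all genes; 5 rose, beside 32.2%, and 4 fell, beside 31.7%, with Dusp3 among the 4 and nothing read from it. The differentiated and undifferentiated libraries did not overlap for 8 members in LIGHT cells, beside 66.6% of all genes, and for 7 in control cells, beside 67.7%. Without the 2 doubted libraries the counts were 10 of 10 in LIGHT cells, beside 64.1% of all genes, and 9 of 10 in control cells, beside 70.7%, again with Dusp3 included and nothing read from it. In LIGHT cells 5 rose, beside 32.3%, and 5 fell, beside 31.9%, and in control cells 5 rose, beside 35.8%, and 4 fell, beside 34.9%. In these 10 libraries the stages did not overlap for 10 members in LIGHT cells, beside 75.8% of all genes, and for 9 in control cells, beside 78.7%. Dusp3 is also in the non-overlap counts of control cells and of the 10 libraries. The counts were not tested against those shares and are not read as a trait of the family. The median log2 fold change of the 10 genes was 0.09 in LIGHT cells and 0.19 in control cells, with the median of all genes close to 0 in both. In whole cultures, fewer cells that express a gene and less RNA per cell cannot be told apart, and the part of the adipocyte content described above was not tested.

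**Figure D3:**
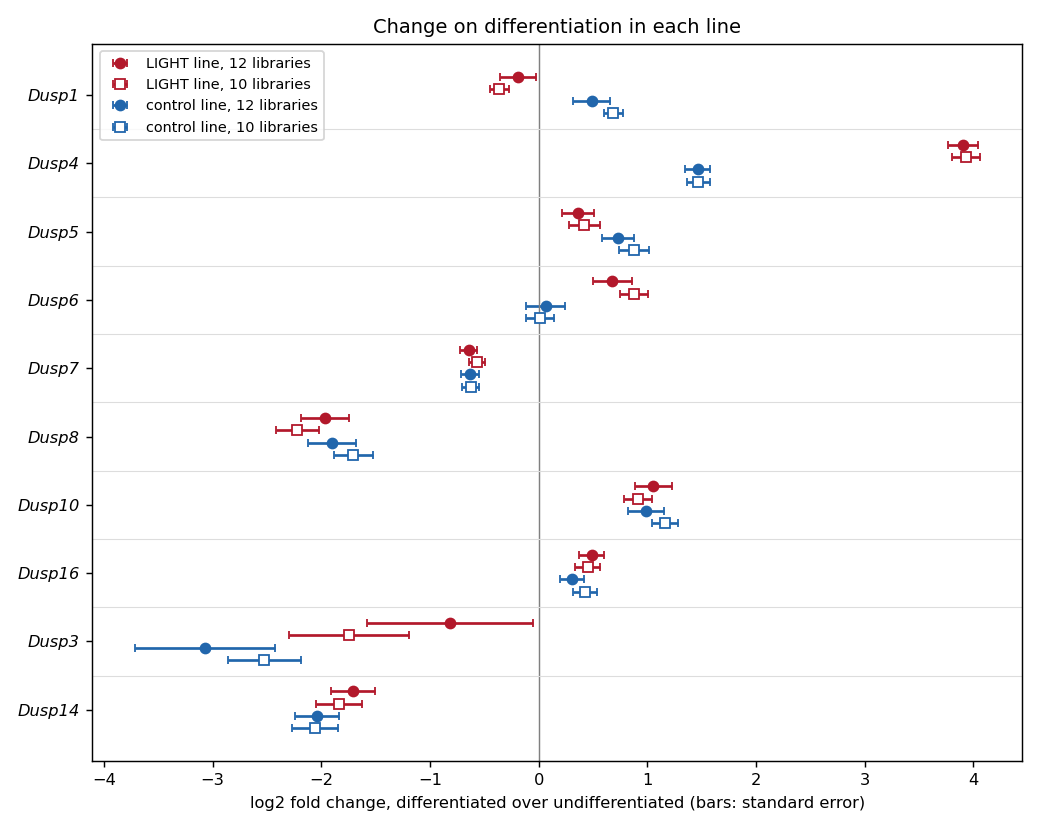
Log2 fold change on differentiation (horizontal axis, differentiated over undifferentiated, with its standard error) of each gene in the LIGHT line (red) and the control line (blue); filled circles are from 12 libraries, open squares from the 10 without the doubted ones. Dusp4 stands at 3.91 in LIGHT cells against 1.46 in control cells, Dusp7, Dusp8 and Dusp14 lie below 0 in both, and the Dusp1 estimates of the LIGHT and control lines lie on opposite sides of 0.

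Promoter sequences were at hand for 9 of the 10 genes, all but Dusp4, from RefSeq on GRCm38.p6. Motifs were sought on both strands in 300 bases, 250 before and 50 after each start, in the 9 and in all 32851 promoters of the table. The cyclic AMP response element TGACGTCA was found once in Dusp1 and 2 times in Dusp8, and is held by 1.79% of all promoters. The CArG box of serum response factor was found 2 times in Dusp5, in a direct row, and is held by 1.63%. The AP-1 motif TGANTCA (7.81% of all promoters), the ETS motif CCGGAAG (8.86%), the glucocorticoid response element (0.475%), the NF-κB motif (1.47%) and the C/EBP motif TTGCNNCAA (2.08%) were in 0 of the 9, and no match overlapped another. The 250 bases before the start are printed for the 3 genes with a match and for Dusp3, the gene whose lines differed most, with the matches in capitals. They lie on chr17:26508473-26508722 (minus strand, Dusp1), chr7:142095285-142095534 (minus, Dusp8), chr19:53528895-53529144 (plus, Dusp5) and chr11:101984792-101985041 (minus, Dusp3).
Dusp1: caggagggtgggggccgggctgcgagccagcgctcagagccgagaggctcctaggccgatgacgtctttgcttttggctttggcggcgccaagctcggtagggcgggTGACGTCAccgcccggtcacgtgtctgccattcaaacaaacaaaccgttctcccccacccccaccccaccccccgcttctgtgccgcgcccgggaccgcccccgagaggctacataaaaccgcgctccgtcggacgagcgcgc
Dusp8: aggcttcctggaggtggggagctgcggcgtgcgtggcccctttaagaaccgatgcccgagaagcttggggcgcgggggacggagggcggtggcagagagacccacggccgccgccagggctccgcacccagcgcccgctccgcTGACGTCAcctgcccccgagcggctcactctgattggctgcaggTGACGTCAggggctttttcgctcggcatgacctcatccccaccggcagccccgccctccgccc
Dusp5: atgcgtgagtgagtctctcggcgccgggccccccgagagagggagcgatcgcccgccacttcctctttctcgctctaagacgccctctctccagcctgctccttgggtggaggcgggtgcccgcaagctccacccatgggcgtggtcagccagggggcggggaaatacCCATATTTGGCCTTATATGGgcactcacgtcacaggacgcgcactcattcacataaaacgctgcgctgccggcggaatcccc
Dusp3: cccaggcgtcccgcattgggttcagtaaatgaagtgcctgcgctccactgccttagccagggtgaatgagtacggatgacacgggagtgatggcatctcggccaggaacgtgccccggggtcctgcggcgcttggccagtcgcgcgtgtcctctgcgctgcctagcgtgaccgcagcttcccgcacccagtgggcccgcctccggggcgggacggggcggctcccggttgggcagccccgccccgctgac
The first base of the Dusp1 element lies at -143 from the start and those of Dusp8 at -107 and -63, and the CArG boxes of Dusp5 begin at -82 and -72. A match is a run of letters and was not tested as a site. On GENCODE M21, exons of Dusp1, Dusp3, Dusp5 and Dusp8 overlap a gene on the opposite strand (Ergic1 for Dusp1), and since no source used here gives the strand setting of the counting, reads of these pairs cannot be told apart.

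Dusp4 (gene ID 319520), the gene of the nuclear phosphatase MKP-2, had a range of group mean log2 CPM of 3.88, next to 3.90 for Dusp3. Its level was 48.9, 46.3 and 55.9 CPM in differentiated LIGHT cells, against 2.95, 2.99 and 4.08 CPM in undifferentiated LIGHT cells (libraries 1, 2 and 3 in this order here and below, so that the first value of each differentiated group is a doubted library). In the control line it was 50.4, 49.4 and 48.1 CPM in differentiated cells, against 15.4, 19.2 and 19.0 CPM in undifferentiated cells. All 6 differentiated libraries thus stood together and above all 6 undifferentiated ones, and the undifferentiated LIGHT libraries lay below the undifferentiated control libraries with no overlap. Dusp4 rose 15.0-fold in LIGHT cells (log2 fold change 3.91 ± 0.14, SE; adjusted p = 2.16e-10) and 2.76-fold in control cells (1.46 ± 0.11; adjusted p = 2.21e-07). The 10 libraries gave 3.93 ± 0.13 in LIGHT cells (adjusted p = 1.74e-15) and 1.47 ± 0.11 in control cells (adjusted p = 2.44e-10). The rise was larger in LIGHT cells, by 2.45 ± 0.18 on the log2 scale (edgeR's test of the interaction, adjusted p = 2.28e-05), and by 2.46 ± 0.18 in the 10 libraries (adjusted p = 9.06e-09). After differentiation the lines did not differ in Dusp4 past the threshold, with a log2 fold change of LIGHT over control of 0.03 ± 0.11 in 12 libraries (adjusted p = 0.968) and 0.06 ± 0.11 in 10 (adjusted p = 0.732). Before it, the undifferentiated LIGHT cells had 0.187 of the control level, a log2 fold change of -2.42 ± 0.14 that is given as a description. The larger rise in LIGHT cells thus came from the undifferentiated libraries, and its test is not independent of that described value.

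Dusp1 (gene ID 19252) encodes MKP-1, the nuclear phosphatase induced within minutes by growth factors, stress and glucocorticoids. Its level was 48.0, 34.7 and 34.6 CPM in differentiated LIGHT cells, against 46.0, 47.7 and 40.3 CPM in undifferentiated LIGHT cells. The control line had 31.1, 47.9 and 47.0 CPM when differentiated, against 28.2, 28.1 and 33.6 CPM when undifferentiated. In each line the first differentiated library lay away from the other 2, and with it the groups of both lines overlapped; without it LIGHT-Diff lay below LIGHT-Undiff, and NC-Diff above NC-Undiff. As labelled, Dusp1 rose 1.40-fold in control cells (log2 fold change 0.49 ± 0.17; adjusted p = 0.0226), and its change in LIGHT cells was -0.19 ± 0.17 (adjusted p = 0.335). The control call was lost without NC-Diff 2 (adjusted p = 0.0802), NC-Diff 3 (0.0775), NC-Undiff 1 (0.0747) or NC-Undiff 2 (0.0745) in the 12-library fit. In the 10 libraries Dusp1 fell in LIGHT cells (-0.36 ± 0.09; adjusted p = 0.00121) and rose in control cells (0.69 ± 0.09; adjusted p = 6.39e-07). The change differed between the lines by -1.05 ± 0.12 in the 10 libraries (adjusted p = 2.93e-06), against -0.68 ± 0.24 in the 12 (adjusted p = 0.0937).

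Between the differentiated lines, Dusp1 differed by a log2 fold change of LIGHT over control of -0.46 ± 0.09 in the 10 libraries (adjusted p = 0.000965), and by -0.11 ± 0.17 in the 12 (adjusted p = 0.926). In repeats of the 10-library fit that left out 1 further library, the value lay between -0.48 and -0.46. Where that library was a differentiated one, its group was left with 1 library. Before differentiation the value was 0.57 ± 0.17, with the 3 LIGHT libraries above the 3 control libraries. Dusp5 (gene ID 240672), the nuclear phosphatase that acts on ERK alone, had 9.91, 10.1 and 12.3 CPM in differentiated LIGHT cells, against 7.68, 8.43 and 8.97 CPM in undifferentiated LIGHT cells. In control cells it had 9.95, 14.1 and 12.5 CPM when differentiated, against 6.64, 7.53 and 7.81 CPM when undifferentiated. In both lines every differentiated library was above every undifferentiated one. The rise passed the threshold in control cells (0.73 ± 0.15; adjusted p = 0.000955) and missed it in LIGHT cells (0.36 ± 0.15; adjusted p = 0.0529). In the 10 libraries both passed, at 0.42 ± 0.14 in LIGHT cells (adjusted p = 0.0123) and 0.88 ± 0.14 in control cells (adjusted p = 1.25e-05). The LIGHT call was lost without LIGHT-Diff 3 (0.27, adjusted p = 0.186). The lines were not shown to differ in this rise (-0.37 ± 0.21, adjusted p = 0.313, in 12 libraries; -0.46 ± 0.20, adjusted p = 0.0885, in 10), nor in the level after differentiation (-0.25 ± 0.15, adjusted p = 0.210, in 10 libraries).

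Of the cytoplasmic ERK phosphatase genes, Dusp6 rose in LIGHT cells and Dusp7 fell in both lines. Dusp6 (gene ID 67603) encodes MKP-3, whose transcription follows ERK activity and feeds back on it. It had 13.4, 21.3 and 22.2 CPM in differentiated LIGHT cells, against 9.86, 12.3 and 13.4 CPM in undifferentiated LIGHT cells. Control cells had 17.7, 14.6 and 15.7 CPM when differentiated, against 14.8, 13.9 and 17.1 CPM when undifferentiated. The control groups overlapped, and in the LIGHT line the differentiated libraries 2 and 3 stood well above the rest. Dusp6 rose 1.60-fold in LIGHT cells (log2 fold change 0.68 ± 0.18; adjusted p = 0.00601), and 1.84-fold in the 10 libraries (0.88 ± 0.13; adjusted p = 4.94e-06). Its change in control cells was 0.07 ± 0.18 (adjusted p = 0.769), and 0.01 ± 0.13 in the 10 libraries (adjusted p = 0.931). The change was larger in LIGHT than in control cells by 0.87 ± 0.18 in the 10 libraries (adjusted p = 0.00115), whereas the 12 as labelled gave 0.61 ± 0.25 (adjusted p = 0.155).

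After differentiation Dusp6 was 1.43-fold higher in LIGHT than in control cells in the 10 libraries (0.51 ± 0.14; adjusted p = 0.00778), a call lost without LIGHT-Diff 3 (adjusted p = 0.0524) or NC-Diff 2 (adjusted p = 0.0753); in the 12 libraries the value was 0.25 ± 0.18 (adjusted p = 0.913). Before differentiation it was -0.37 ± 0.18, with the LIGHT libraries below the control libraries. Dusp7 (gene ID 235584), whose product MKP-X also acts on cytoplasmic ERK, had 31.5, 38.2 and 35.3 CPM in differentiated LIGHT cells, against 54.7, 51.7 and 57.8 CPM in undifferentiated LIGHT cells. In control cells it had 32.3, 32.1 and 30.6 CPM when differentiated, against 47.4, 47.0 and 52.8 CPM when undifferentiated. All 6 differentiated libraries lay below all 6 undifferentiated ones. The log2 fold change was -0.64 ± 0.08 in LIGHT cells (adjusted p = 2.02e-05) and -0.63 ± 0.08 in control cells (adjusted p = 2.11e-05), and the difference between them was -0.01 ± 0.11 (adjusted p = 0.965). The 10 libraries gave -0.57 ± 0.08 in LIGHT cells (adjusted p = 2.08e-06), -0.62 ± 0.08 in control cells (adjusted p = 6.67e-07) and a difference of 0.05 ± 0.11 (adjusted p = 0.748). After differentiation Dusp7 differed between LIGHT and control cells by 0.14 ± 0.08 in the 12 libraries (adjusted p = 0.913) and by 0.22 ± 0.09 in the 10 (adjusted p = 0.0567). In the 10 libraries that difference passed on library totals (adjusted p = 0.0127) and without LIGHT-Undiff 3 (0.0489) or NC-Undiff 3 (0.0417). Dusp7 was the only member whose expected counts were not whole in any library, as happens where reads are divided between genes that share sequence, so its level is uncertain to that extent.

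Of the genes for phosphatases that prefer JNK and p38, Dusp8 fell while Dusp10 and Dusp16 rose. Dusp8 (gene ID 18218) had 2.56, 1.64 and 1.52 CPM in differentiated LIGHT cells, against 7.68, 6.97 and 7.68 CPM in undifferentiated LIGHT cells. In the control line it had 1.62, 2.18 and 2.75 CPM when differentiated, against 8.48, 8.20 and 7.99 CPM when undifferentiated. All 6 differentiated libraries, at most 2.75 CPM, lay below all 6 undifferentiated ones, at least 6.97 CPM. The log2 fold change was -1.97 ± 0.22 in LIGHT cells (adjusted p = 9.04e-06) and -1.90 ± 0.22 in control cells (adjusted p = 8.28e-06). The 10 libraries gave -2.22 ± 0.20 in LIGHT cells (adjusted p = 6.58e-09) and -1.70 ± 0.18 in control cells (adjusted p = 7.03e-08). The lines were not shown to differ in the fall of Dusp8 (-0.52 ± 0.28 in the 10 libraries; adjusted p = 0.172). After differentiation Dusp8 was lower in LIGHT than in control cells in the 10 libraries (-0.65 ± 0.24; adjusted p = 0.0453), but the call was lost in 9 of 10 repeats that left out 1 further library, as it was with DESeq2 (adjusted p = 0.0994), and the counts behind it were 31 and 25 in LIGHT-Diff 2 and 3 against 36 and 51 in NC-Diff 2 and 3.

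Dusp10 (gene ID 63953), the gene of MKP-5, had 27.6, 21.8 and 20.1 CPM in differentiated LIGHT cells, against 10.1, 10.4 and 12.9 CPM in undifferentiated LIGHT cells. Control cells had 19.1, 26.1 and 28.2 CPM when differentiated, against 13.5, 10.7 and 12.8 CPM when undifferentiated. No differentiated library overlapped an undifferentiated one. The gene rose 2.07-fold in LIGHT cells (log2 fold change 1.05 ± 0.17; adjusted p = 0.000173) and 1.98-fold in control cells (0.99 ± 0.17; adjusted p = 0.000230). With 10 libraries the values were 0.91 ± 0.13 in LIGHT cells (adjusted p = 2.85e-06) and 1.16 ± 0.12 in control cells (adjusted p = 5.99e-08). Between the differentiated lines the 10 libraries gave -0.38 ± 0.13, LIGHT below control (adjusted p = 0.0331), a call lost without LIGHT-Diff 2 (adjusted p = 0.0781), LIGHT-Diff 3 (0.182), NC-Diff 2 (0.0589) or NC-Diff 3 (0.167); the 12 libraries gave -0.08 ± 0.16 (adjusted p = 0.942). Dusp16 (gene ID 70686), the gene of MKP-7, had the narrowest range of group means of the 10 (0.53 in log2 CPM), with 17.0, 15.0 and 16.2 CPM in differentiated LIGHT cells, against 11.3, 11.2 and 11.9 CPM in undifferentiated LIGHT cells. It had 14.4, 16.7 and 19.1 CPM in differentiated control cells, against 14.6, 12.98 and 12.999 CPM in undifferentiated control cells. The groups were apart in the LIGHT line and overlapped in the control line. Dusp16 rose in LIGHT cells (0.49 ± 0.11; adjusted p = 0.00255) and in control cells (0.31 ± 0.11; adjusted p = 0.0305). The control call was lost on library totals (0.19, adjusted p = 0.136), on the control groups alone (0.31, adjusted p = 0.0728) and without NC-Diff 2 (adjusted p = 0.0525), NC-Diff 3 (0.131), NC-Undiff 2 (0.0910) or NC-Undiff 3 (0.0870); in the 10 libraries it was 0.43 ± 0.11 (adjusted p = 0.00245), lost without NC-Diff 3 (adjusted p = 0.0658). In LIGHT cells the 10 libraries gave 0.45 ± 0.12 (adjusted p = 0.00205). After differentiation Dusp16 differed between LIGHT and control cells by -0.06 ± 0.11 in the 12 libraries (adjusted p = 0.939) and by -0.20 ± 0.12 in the 10 (adjusted p = 0.231).

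Dusp3 (gene ID 72349) encodes VHR, a small phosphatase that acts on ERK and JNK in cultured cells. Its counts were 16, 1 and 8 in differentiated LIGHT cells, 15, 12 and 21 in undifferentiated LIGHT cells, 1, 24 and 18 in differentiated control cells, and 126, 128 and 116 in undifferentiated control cells. In CPM these were 0.997, 0.0528 and 0.487 in LIGHT-Diff, 0.886, 0.629 and 1.13 in LIGHT-Undiff, 0.0622, 1.45 and 0.972 in NC-Diff, and 7.27, 7.19 and 6.76 in NC-Undiff. The 3 undifferentiated control libraries thus stood apart, and the other 9 lay at or under 1.45 CPM, with NC-Diff 1 and LIGHT-Diff 2 below the level that 3 counts are worth. As a description, the log2 fold change of LIGHT over control was -3.00 ± 0.64 before differentiation, or 0.125 of the control level. On differentiation it was -0.82 ± 0.76 in LIGHT cells and -3.07 ± 0.65 in control cells. The 10 libraries gave -1.74 ± 0.55 in LIGHT cells and -2.52 ± 0.34 in control cells. Between the differentiated lines, which the choice of Dusp3 did not use, the difference was -0.74 ± 0.77 in the 12 libraries (adjusted p = 0.913). In the 10 libraries it was -2.21 ± 0.56 (adjusted p = 0.00553), from 9 counts in LIGHT-Diff 2 and 3 together against 42 in NC-Diff 2 and 3. That call rests on LIGHT-Diff 2, with its single count: without it the value was -1.30 (adjusted p = 0.1004).

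Dusp14 (gene ID 56405) encodes MKP-6, a small phosphatase known in T cells to restrain signalling through the TAB1 and TAK1 complex. It had 3.37, 2.64 and 2.56 CPM in differentiated LIGHT cells, against 8.86, 11.5 and 7.68 CPM in undifferentiated LIGHT cells. In control cells it had 2.92, 2.60 and 2.75 CPM when differentiated, against 11.1, 9.50 and 13.6 CPM when undifferentiated. All 6 differentiated libraries lay below all 6 undifferentiated ones, with at most 3.37 CPM against at least 7.68 CPM. The fall was to 0.306 of the undifferentiated level in LIGHT cells (log2 fold change -1.71 ± 0.20; adjusted p = 1.09e-05) and to 0.243 in control cells (-2.04 ± 0.20; adjusted p = 1.81e-06). The lines were not shown to differ, either in the fall (0.33 ± 0.28; adjusted p = 0.509) or after differentiation (0.05 ± 0.21; adjusted p = 0.978). Without the 2 doubted libraries the log2 fold change was -1.84 ± 0.21 in LIGHT cells (adjusted p = 2.96e-07) and -2.06 ± 0.21 in control cells (adjusted p = 3.75e-08), and -0.05 ± 0.26 between the differentiated lines (adjusted p = 0.912).

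Between the differentiated lines as labelled, 0 of the 10 members and 0 of 12993 genes passed, so the share over all genes was 0%. At an unadjusted p under 0.05 there were 523 genes and 0 members, and DESeq2 called 1 gene and 0 members. The lines overlapped for all 10 members, where 6.77% of all genes did not overlap. Without the 2 doubted libraries 5 members passed, beside 31% of all genes, namely Dusp6, which was higher in LIGHT cells, where 14.6% of all genes were, and Dusp1, Dusp3, Dusp8 and Dusp10, which were lower, where 16.4% were. The lines did not overlap for 8 members, all but Dusp4 and Dusp14, beside 66.7% of all genes. That share of 5 in 10 rests on 2 libraries a group, so leaving out 1 of them leaves 1 library in its group. In such repeats the calls of Dusp3, Dusp6, Dusp8 and Dusp10 were each lost at least once, and the Dusp1 value stayed between -0.48 and -0.46. In the same 10 libraries 6 of the 8 adipocyte markers were lower in LIGHT cells and 0 were higher, with summed levels of 12446 and 12746 CPM in LIGHT-Diff 2 and 3 against 17334 and 18193 CPM in NC-Diff 2 and 3. The 7 listed preadipocyte and fibroblast markers summed to 14956 and 14456 CPM in LIGHT-Diff 2 and 3 against 10297 and 10727 CPM in NC-Diff 2 and 3. That sum is weighted to the abundant markers, and of the 7, 4 were higher and 2 lower in LIGHT cells. The part of these marker lists in the differences of the 5 phosphatases was not tested. Endothelial markers summed to at most 1.21 CPM and leukocyte markers to at most 9.60 CPM in any differentiated library. The 5 listed muscle markers summed to 16.9 and 18.2 CPM in LIGHT-Diff 2 and 3 against 26.4 and 29.5 CPM in NC-Diff 2 and 3, and to 7.03 to 10.8 CPM in undifferentiated libraries, and their part was not tested either. Only 2 of these muscle markers passed the filter on low counts, and in the 10 libraries 1 was lower in LIGHT cells and 0 higher.

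**Figure D4:**
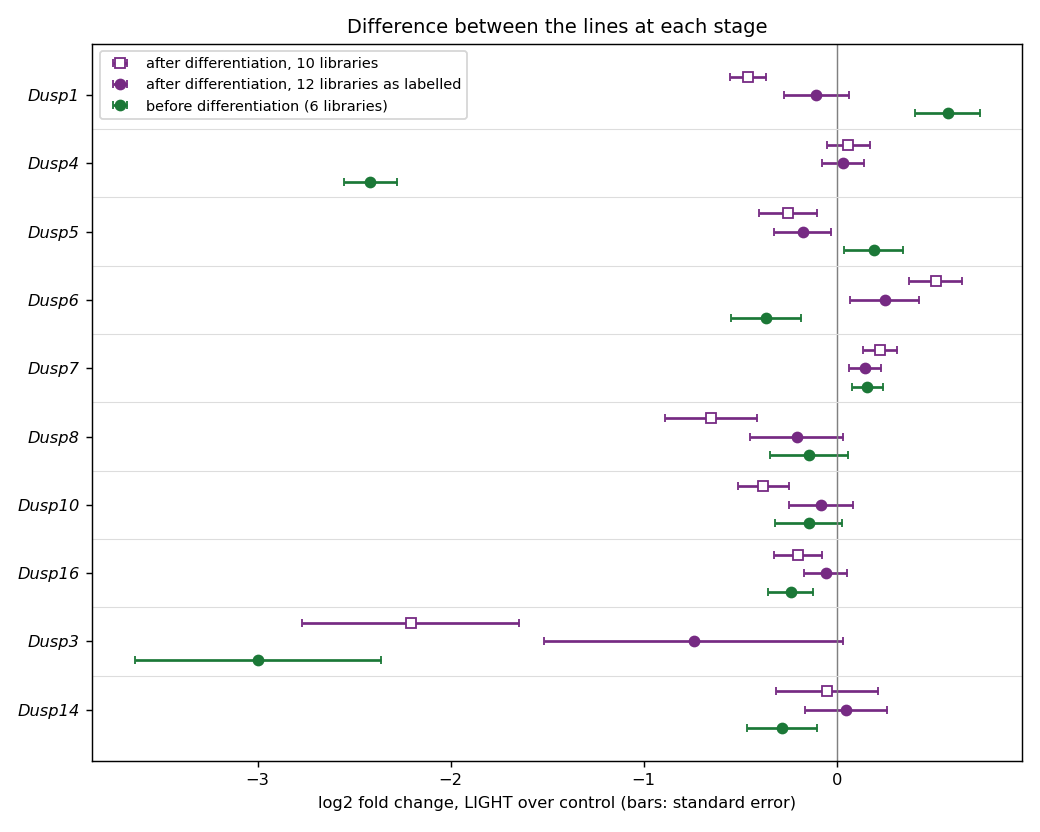
Log2 fold change of LIGHT over control (horizontal axis, with its standard error) for each gene after differentiation, from the 10 libraries (open squares) and from all 12 as labelled (purple circles), and before differentiation (green circles, a description). Dusp1 lies at 0.57 before and -0.46 after differentiation in the 10 libraries, Dusp6 at -0.37 before and 0.51 after, and Dusp4 at -2.42 before and 0.06 after.

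Before differentiation, the comparison from which Dusp3 had been noted, the members are described without a test. Their count past the threshold is given only against that of all genes, at 3 in the 12 libraries (2 to 3 with 1 library left out) beside 26.5%, with 1 higher in LIGHT cells beside 12.3% and 2 lower beside 14.2%. The lines did not overlap for 6 members, beside 52.3% of all genes. In the 10-library fit the count was 5, beside 44.4%, with 2 higher, beside 22.3%, and 3 lower, beside 22.1%, and 6 did not overlap, beside 52.1%. Dusp3 is among them, and nothing is read from these counts. The median log2 fold change of the 10 genes was -0.19, with that of all genes at -0.01. The other 7 lay between -0.37 and 0.19. In these undifferentiated libraries the summed leukocyte markers stood at 14.5 to 16.3 CPM in LIGHT cells and 19.7 to 20.5 CPM in control cells, with Itgam at 0 in all control libraries, and the preadipocyte and fibroblast markers at 16615 to 18178 CPM in LIGHT cells and 9651 to 11400 CPM in control cells; their part in the member values was not tested. Of 7 listed preadipocyte and fibroblast markers, 3 were higher and 1 lower in LIGHT cells in the 12 libraries. In the 10-library fit 4 were higher and 1 lower. The leukocyte markers were split too, with 1 higher and 3 lower in LIGHT cells of 5 tested in the 12 libraries. For them the 10-library fit gave 2 higher and 3 lower of 6. For the difference between the lines in the change on differentiation, 1 member, Dusp4, passed in the 12 libraries, beside 9.34% of all genes. Its difference was positive, as for 5.08% of all genes, and 4.26% had a negative one. In the 10 libraries 3 members passed, beside 31% of all genes; Dusp4 and Dusp6 had a positive difference, as did 14.9% of all genes, and Dusp1 a negative one, as did 16.1%. This test shares the undifferentiated libraries with the comparison in which Dusp3 had been noted.

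The rest of the MAP kinase pathway was counted from lists chosen with earlier results known. Of all genes, 29.5% rose and 29.1% fell in LIGHT cells and 32.2% rose and 31.7% fell in control cells. For the 10 libraries the shares were 32.3% and 31.9% in LIGHT cells, and 35.8% and 34.9% in control cells. Values are for the 12 libraries unless the 10 are named. Of 21 tested relatives among the other dual-specificity phosphatases, 8 rose and 4 fell in LIGHT cells, and 9 rose and 4 fell in control cells; in the 10 libraries the counts were 8 and 5 of 22 in LIGHT cells, and 11 and 3 in control cells. Dusp22, an atypical phosphatase, averaged 52.7 ± 3.54 CPM in differentiated against 17.6 ± 0.162 CPM in undifferentiated LIGHT cells (log2 fold change 1.58 ± 0.08; adjusted p = 3.41e-09), and 51.4 ± 3.45 against 16.2 ± 0.599 CPM in control cells (1.66 ± 0.08; adjusted p = 1.79e-09). For Dusp9, a further cytoplasmic ERK phosphatase gene, the change was more positive in LIGHT than in control cells, by 0.98 ± 0.17 on the log2 scale (adjusted p = 0.00480), and by 1.07 ± 0.17 in the 10 libraries (adjusted p = 0.000101). Of 9 tested MAP kinases 2 rose and 1 fell in LIGHT cells, and 4 rose and 1 fell in control cells. The median log2 fold changes of the MAP kinases were 0.10 in LIGHT cells and 0.19 in control cells, and 0.05 in LIGHT cells and 0.28 in control cells in the 10 libraries.

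Other inhibitors of RAS and ERK signalling were split, with 4 of 15 higher and 6 lower on differentiation in LIGHT cells, and 4 higher and 5 lower in control cells. Spry4, a Sprouty protein gene that ERK signalling induces, averaged 90.8 ± 14.7 CPM in differentiated against 5.95 ± 0.428 CPM in undifferentiated LIGHT cells (3.93 ± 0.13; adjusted p = 1.73e-10), and 95.2 ± 10.6 against 7.17 ± 0.392 CPM in control cells (3.73 ± 0.13; adjusted p = 1.82e-10). Of the 25 upstream kinases and RAS genes 9 rose and 6 fell in LIGHT cells, and 9 rose and 8 fell in control cells. Of 7 tested other phosphatases of MAP kinases 3 rose in each line, and 1 fell in LIGHT and 2 in control cells.

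Of 11 ERK output genes, 4 rose and 5 fell on differentiation in LIGHT cells, with a median log2 fold change of 0.30, and 2 rose and 6 fell in control cells, with a median of -0.45. The 10 libraries gave 5 higher and 5 lower in LIGHT cells, with a median of 0.21, and 3 higher and 5 lower in control cells, with a median of -0.27. Of all genes in the 12 libraries, 29.5% rose and 29.1% fell in LIGHT cells, and 32.2% rose and 31.7% fell in control cells. In the 10 libraries these shares were 32.3% and 31.9% in LIGHT cells, and 35.8% and 34.9% in control cells. Etv4, an ETS factor gene, fell by 1.58 ± 0.13 on the log2 scale in LIGHT cells (adjusted p = 4.14e-07) and by 3.23 ± 0.13 in control cells (adjusted p = 6.53e-10). The change of 6 of the 11 was more positive in LIGHT cells and that of 1, Egr1, more negative (-2.58 ± 0.16; adjusted p = 9.30e-06), where 9.34% of all genes differed; the 10 libraries gave 8 and 2, where 31% did. Between the undifferentiated lines, 1 of the 11 was higher in LIGHT cells and 7 lower, beside 12.3% and 14.2% of all genes, with a median of -0.71. In the 10-library fit 2 were higher and 9 lower, beside 22.3% and 22.1% of all genes. The 1 that was higher, the immediate early gene Egr1, averaged 224 ± 11.1 CPM in undifferentiated LIGHT against 32.0 ± 1.26 CPM in undifferentiated control cells.

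Between the differentiated lines as labelled, 0 genes of these 6 lists passed. In the 10 libraries, where 31% of all genes did, 2 of 22 other dual-specificity phosphatases were higher in LIGHT cells and 4 lower, and 3 of 10 MAP kinases were lower and 0 higher. The 3 were Mapk6, at -0.44 ± 0.06 on the log2 scale (edgeR's test, adjusted p = 2.23e-05), and the JNK genes Mapk9 and Mapk8. These 2 stood at -0.42 ± 0.08 (adjusted p = 0.000747) and -0.33 ± 0.12 (adjusted p = 0.0425). The ERK output genes were split at 4 higher and 2 lower of 11. Of the 2, Fosl1, a subunit gene of AP-1, averaged 94.5 ± 9.44 CPM in LIGHT against 231 ± 5.14 CPM in control cells (SD, n = 2 each, log2 fold change -1.30 ± 0.07, edgeR's test, adjusted p = 1.22e-10). Of the 4, Egr1 averaged 306 ± 0.495 CPM in LIGHT against 233 ± 0.0946 CPM in control cells (0.38 ± 0.06, adjusted p = 3.95e-05). Of 25 upstream kinases and RAS genes 5 were higher and 3 lower, of 15 other inhibitors 4 higher and 2 lower, and of 8 other phosphatases 1 higher and 4 lower.

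The genes whose log2 CPM ran most like that of Dusp3 over the 12 libraries, among 9964 named genes averaging 5 CPM or more, were Ralgapb (Pearson r = 0.978), Gtpbp4 (0.972) and Eif3d (0.967). For Dusp4, the other member with the widest range of group means, they were Nln (0.993), Elac2 (0.988) and Mcam (0.985). These points fall into groups that share stage and line, and the correlations are given as a description. They do not measure the size of a change. Ralgapb ran only from 61.4 CPM in NC-Diff 1 to 80.2 CPM in NC-Undiff 3. Nln ran only from 40.3 CPM in LIGHT-Undiff 1 to 77.5 CPM in NC-Diff 2. The range of group mean log2 CPM was 3.90 for Dusp3 and 3.88 for Dusp4, next to 2.08 for Dusp8, 1.99 for Dusp14, 1.12 for Dusp10 and 0.79 for Dusp7, and 0.71 for Dusp5, 0.65 for Dusp6, 0.57 for Dusp1 and 0.53 for Dusp16. Mcam, which encodes a cell adhesion molecule of the immunoglobulin family, had 29.8, 32.2 and 27.5 CPM in differentiated LIGHT cells, against 2.07, 1.15 and 1.45 CPM in undifferentiated LIGHT cells, and 33.7, 26.3 and 32.4 CPM in differentiated control cells, against 8.31, 8.32 and 7.52 CPM in undifferentiated control cells.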

How the data were processed

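Total RNA of 12 libraries was sequenced on an Illumina HiSeq, per the labels. Each library has a table of expected counts and FPKM by gene, made by the authors, per the file headers; genes at 0 are not listed and were set to 0. The FPKM values, deposited by the authors, are relative to the listed length and to the fragments of the library. Per the submitters' processing notes, reads were placed on mm8; no source used here names the aligner, the counting program or its strand setting, and the tables hold no coordinates.

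For the test, the deposited expected counts were rounded, then fitted with edgeR 4.0.16 (limma 3.58.1, R 4.3.3): TMM scaling, filterByExpr with a minimum count of 10, 1 coefficient per group over all 12 libraries, quasi-likelihood F test and Benjamini-Hochberg adjustment over all genes tested, with a threshold of 0.05. The 5 contrasts were differentiation in each line, LIGHT over control after and before differentiation, and the difference of the differentiation changes. A standard error is the size of the log2 fold change over √F. CPM are TMM-scaled, and log2 CPM used a prior count of 2. The fit was repeated on the 10 libraries whose Tnfsf14 does not contradict their labels. Libraries held 16334079 to 19686675 counts. Alternatives were DESeq2 1.42.0, other scalings and filters, the replicate number as a block, the contrast's groups alone and each library left out. The fit was tested on simulated counts. Tables, promoters and figures were made with Python 3.11.15, pandas 2.3.3, numpy 2.4.6, scipy 1.17.1 and matplotlib 3.10.9.

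The members and all lists were chosen with earlier results of these data known. Named genes were the 10 members, Tnfsf14, at most the 3 genes of a pathway list with the smallest p in the contrast described, and the 3 genes most like Dusp3 and the other widest-ranging member; Ucp1, Cidea, the markers at 0 and Ergic1 were named outside it, after their values were seen.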

Additional observations from a re-analysis of the deposited data

Results flagged for a closer look

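The change on differentiation differed between the LIGHT and control lines, by a test of the difference itself, for 3 of the phosphatases. All 3 passed in the 10 libraries, beside 31% of all genes, and Dusp4 alone in the 12, beside 9.34%. Read against those shares, the count does not set the family apart. For Dusp4, the gene of MKP-2, it was 2.45 higher on the log2 scale in LIGHT cells in the 12 libraries (edgeR's quasi-likelihood test, adjusted p = 2.28e-05) and 2.46 higher in the 10 libraries (adjusted p = 9.06e-09). Before differentiation Dusp4 had 2.95, 2.99 and 4.08 CPM in LIGHT and 15.4, 19.2 and 19.0 CPM in control cells. After it, LIGHT over control was 0.03 on the log2 scale in the 12 libraries. The Dusp4 difference thus came from the undifferentiated libraries, whose own comparison was given without a test. For Dusp1 the difference was -1.05 in the 10 libraries (adjusted p = 2.93e-06), and for Dusp6 it was 0.87 (adjusted p = 0.00115). The differences for Dusp1 and Dusp6 passed the threshold only without the libraries labelled LIGHT-Diff 1 and NC-Diff 1, or without 1 of them.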

How the results depend on the processing

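Of 1212 alternative values of tested members, 1158 kept their side of the threshold, 22 gained and 32 lost a call, and none changed sign as a called value; of 428 values given without a test, 4 moved by more than their spread. After differentiation, DESeq2 called 1 gene in the 12 libraries; without NC-Diff 1 and LIGHT-Diff 1 the calls were 5 members and 4079 genes. Before differentiation, the fit on the contrast's groups alone called 5 members and 5601 genes, and the 10 libraries 5 members and 5836 genes. For the difference of the changes, the replicate block called 747 genes, and the 10 libraries 3 members and 4077 genes.

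With 1 library left out of the 12, members and genes called ranged over 7 to 8 and 6872 to 8227 for differentiation in LIGHT cells, 7 to 9 and 7581 to 8645 in control cells, 0 and 0 after, 2 to 3 and 2238 to 4280 before, and 1 to 3 and 675 to 1868 for the difference. With 1 left out of the 10, they ranged over 9 to 10 and 7358 to 8515, 8 to 9 and 8278 to 9385, 2 to 5 and 2568 to 4295, 3 to 6 and 4985 to 5778, and 3 and 3032 to 4171, in the same order. Dusp5 in LIGHT cells passed in the 12 libraries under the replicate block (adjusted p = 0.0342), RLE scaling (0.04997), a minimum count of 50 (0.0483) and the contrast's groups alone (0.0463), and without NC-Diff 1 (0.0246), NC-Diff 2 (0.0418) or LIGHT-Diff 1 (0.0458). The lowest count of genes before differentiation, 2238, and for the difference, 675, came without LIGHT-Undiff 2, and the highest for the difference, 1868, without NC-Diff 1. The 2 members after differentiation in the 10 libraries came without LIGHT-Diff 2 or LIGHT-Diff 3. Without LIGHT-Diff 3 the described Dusp3 change in LIGHT cells in the 10 libraries was -3.88, and its difference between the lines, 0.78 with all 10, was -1.36. The causes were not tested.

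Scaling by library totals moved the median over all genes to a log2 fold change of -0.11 for differentiation in control cells, and put 66.0% of the calls after differentiation in the 10 libraries higher in LIGHT cells, against 47.1% with TMM. No strong pairing by replicate number was seen: 0 of 18 same-numbered pairs correlated over 0.1 (highest 0.097), and 6 of 12 libraries matched best with their own number. The doubted libraries LIGHT-Diff 1 and NC-Diff 1, at -0.618 with each other, weigh on these values, so a weak pairing could go unseen. Dusp3 and Dusp8 rest on few counts after differentiation, and differences there were not detectable at this depth unless large.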
